A study of Nannochloropsis oceanica with 6 samples.

Results

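The citrate cycle genes of Nannochloropsis oceanica IMET1, a single-celled marine alga that stores oil, are described here as the gene models whose deposited KEGG pathway field names the citrate cycle. The rule gave 39 models of 10481 in the tables, and no measured value entered it. RNA was sequenced from 6 parallel cultures of the IMET1 strain, inoculated with washed log-phase cells that had been grown at 25 °C, and kept under continuous light. For all 6 the same 25 °C, light of 50 µmol per square metre per second and OD750 (optical density) of 2.5 are recorded. In the repletion group (NR, 3 cultures) the cells went into complete f/2 medium, whose nitrogen source was nitrate, and in the deprivation group (ND, 3 cultures) into the same medium without nitrogen. All 6 were collected after 72 h, so the data hold 1 time point and 1 strain. The labels do not say whether the parallel cultures came from separate starting cultures, and the p-values measure the spread between these 6 libraries only.

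The citrate cycle oxidises acetyl groups to carbon dioxide in the mitochondrion and passes the electrons to the respiratory chain. It also supplies carbon skeletons, above all 2-oxoglutarate, which accepts ammonium in the making of glutamate and so ties the cycle to nitrogen assimilation. Its feeder, the pyruvate dehydrogenase complex, exists in plant and algal cells in a mitochondrial form that serves respiration and a plastid form that serves fatty acid synthesis, while ATP-citrate synthase draws on citrate to make acetyl-CoA outside the mitochondrion.

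Library totals ran from 3972986 to 5693513 estimated counts. Levels are given in normalised CPM, counts relative to the library's total scaled with trimmed mean of M-values (TMM) factors, which are comparable between conditions but not between genes, and a change is ND relative to NR on the log2 scale, ± SE, from edgeR's quasi-likelihood test, called at an adjusted p under 0.05. TPM, which is scaled for length, is used where gene models are set against each other. The scaling between libraries matters: the median change of all genes was 0.02 with TMM and 0.34 with library totals alone. Counts are relative to all RNA in a library, so a change in RNA per cell cannot be told apart from them. In 14 of the 39 models the estimated counts were not whole, which means that part of the reads was divided with another model. These are marked as having divided reads, and their values are uncertain.

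Most citrate cycle genes were more abundant in ND. Of 38 models tested, 24 rose and 8 fell, against 35.7% and 35.5% of all genes tested, and 6 were not called. In total 84.2% of the members were called, with a background of 71.2%. A rise of at least 2 times was found for 9 members (9.39% of all genes) and a fall of that size for 1 (12.5% of all genes). The median change over the members was 0.39, against 0.02 over all genes. With library totals alone the members' median was 0.71 against 0.34, with 31 members higher and 7 lower, where 54.4% and 23% of all genes were called higher and lower (77.4% in all). ND and NR libraries did not overlap for 33 of the 38 members, with a background of 73.5%.

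The label citrate cycle did not hold for every model. The 3 models named sthA carry the KEGG number of dihydrolipoyl dehydrogenase, but their protein descriptions name a soluble pyridine nucleotide transhydrogenase, an enzyme that moves hydride between the nicotinamide cofactors. The model nadB (NO08G01370) carries the number of the succinate dehydrogenase flavoprotein, but its description names L-aspartate oxidase, the first enzyme of bacterial-type NAD synthesis. A fumarate hydratase number is the only annotation in the fields used here for NO17G01110. Without these 5 models 20 of 33 rose and 7 fell, with a median of 0.36. The only isocitrate dehydrogenase among the members is annotated as the NADP-dependent type.

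**Figure D1:**
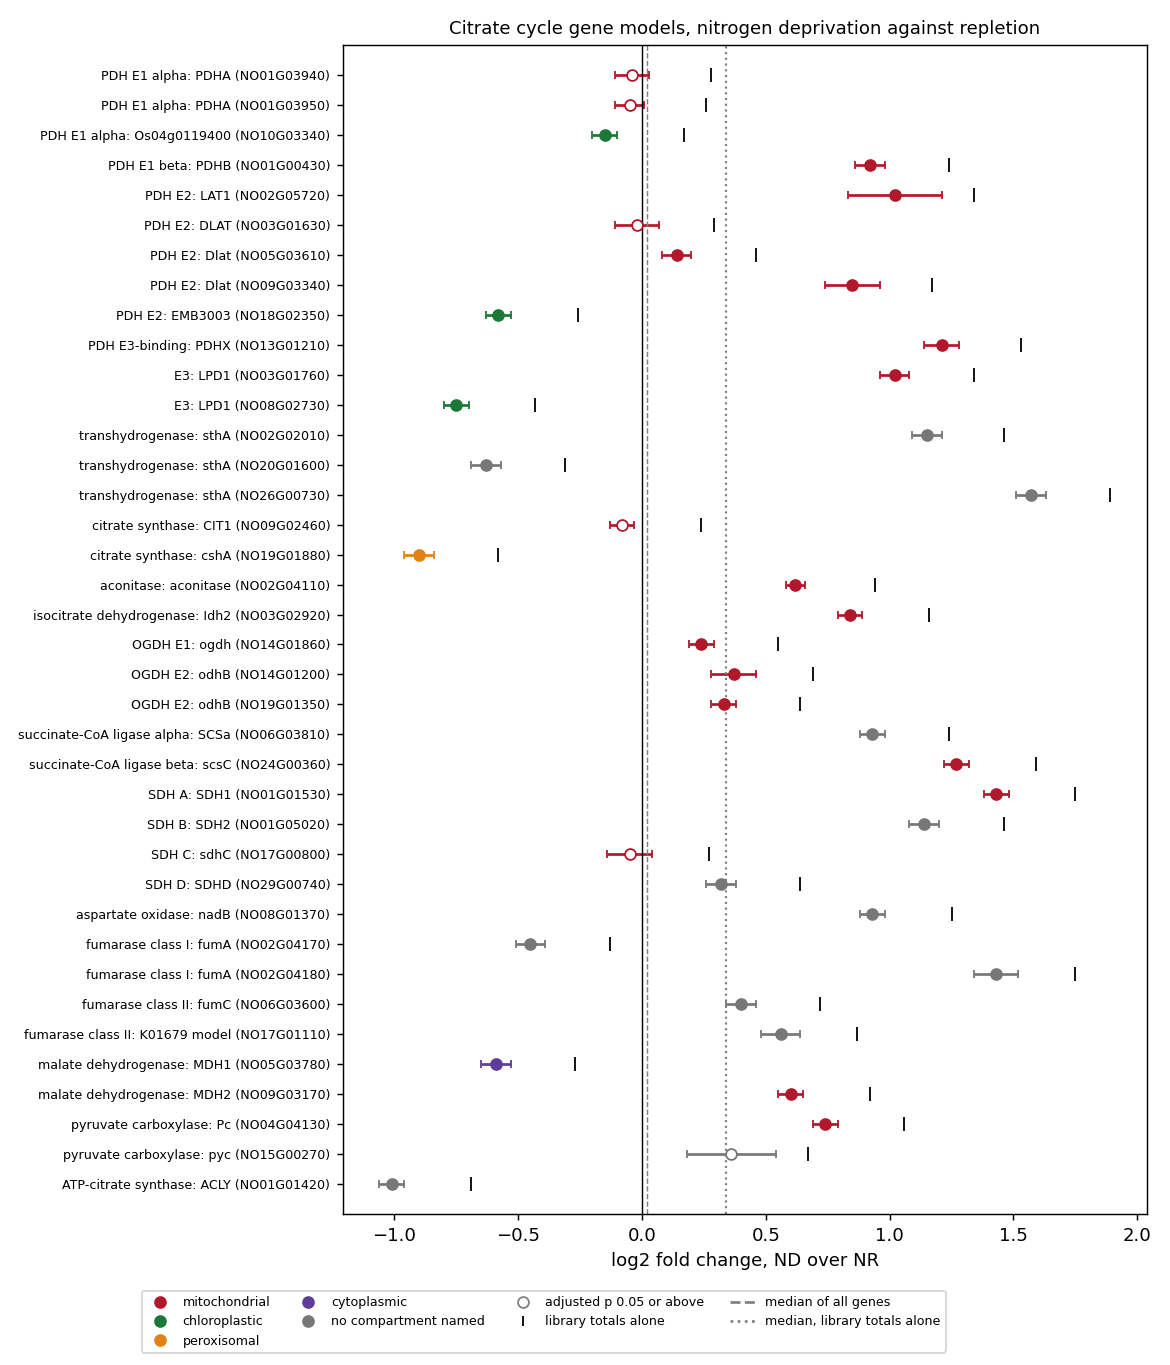
Log2 change (ND relative to NR) with its SE for the 38 tested models, by enzyme and coloured by the compartment named in the deposited protein description. Open circles had an adjusted p of 0.05 or above, ticks give the change with library totals alone, and the dashed and dotted lines mark the median of all genes at 0.02 and 0.34. The models with a mitochondrial description lie at or to the right of -0.08, and the 3 with a chloroplastic description lie left of 0.

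The pyruvate dehydrogenase complex, which turns pyruvate into acetyl-CoA, held models that rose and models that fell. Of its 10 models 5 rose, 2 fell and 3 were not called, so that 70% were called against 71.2% of all genes. Scaled by library totals alone, 9 were higher and 1 was lower. The E1 beta subunit PDHB (NO01G00430) stood at 102, 96.6 and 92.9 CPM in NR 1 to 3 and at 181, 185 and 188 CPM in ND 1 to 3. Every ND library lay above every NR library, and the change was 0.92 ± 0.06 (adjusted p = 3.52e-11). PDHX (NO13G01210), the component that in animals and fungi docks E3 to the core, had 58.9, 58.6 and 54.4 CPM in NR and 134, 129 and 135 CPM in ND, a change of 1.21 ± 0.07 (adjusted p = 4.43e-12).

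Both models with a chloroplastic description were called lower. EMB3003 (NO18G02350), described as a chloroplastic acetyltransferase (E2), had 499, 554 and 498 CPM in NR and 332, 361 and 345 CPM in ND, with no overlap and a change of -0.58 ± 0.05 (adjusted p = 5.66e-09). The chloroplastic E1 alpha model Os04g0119400 (NO10G03340) had 514, 526 and 504 CPM in NR and 463, 454 and 472 CPM in ND. Its change of -0.15 ± 0.05 (adjusted p = 0.00575) was small and its sign depended on the scaling: with library totals alone it was 0.17, and with upper-quartile factors it was -0.04 and not called. Within each library the log2 ratio of the TPM of Os04g0119400 to that of PDHB, which no scaling between libraries touches, was 0.85 ± 0.07 in NR and -0.24 ± 0.03 in ND, a ratio that also holds the rise of PDHB. Among the E1 alpha models alone its share was 31.6% ± 1.81 in NR and 29.5% ± 0.722 in ND, and the groups overlapped (exact p = 0.3).

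Neither mitochondrial E1 alpha model was called. PDHA NO01G03940 had 218, 198 and 177 CPM in NR and 204, 186 and 188 CPM in ND, and its neighbour by gene ID, PDHA NO01G03950, had 129 to 145 CPM over all 6 libraries. The groups overlapped in both models, both had divided reads, and their changes were -0.04 ± 0.07 and -0.05 ± 0.06. Summed into 1 gene they gave 338 ± 24.5 CPM in NR and 327 ± 9.93 in ND (SD, n = 3), a change of -0.05 ± 0.06 (adjusted p = 0.454). The separate changes were 0.28 and 0.26 with library totals alone.

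Among the mitochondrial acetyltransferase models, 3 of 4 rose. LAT1 (NO02G05720), the model of fewest counts among them at 25 to 109 per library, rose from 7.14, 6.88 and 9.15 CPM to 15.6, 14.3 and 17.1 CPM (1.02 ± 0.19). Dlat NO09G03340, with divided reads, went from 26.1, 34.9 and 39.1 CPM to 59.6, 61.4 and 58.7 CPM (0.85 ± 0.11). The NR libraries of this model were spread more widely than those of ND, but the groups did not overlap. Dlat NO05G03610 changed by 0.14 ± 0.06 (adjusted p = 0.043), a call that was lost with the replicate block (adjusted p = 0.0524), with RLE factors (0.0668), with DESeq2 (0.148) and when any library other than NR 2 was left out. DLAT (NO03G01630, divided reads) was at 113 to 156 CPM in NR and 123 to 129.8 CPM in ND and was not called (-0.02 ± 0.09).

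Dihydrolipoyl dehydrogenase (E3), the flavoenzyme that reoxidises the lipoyl arms of the pyruvate and 2-oxoglutarate complexes, moved in opposite directions by compartment. The mitochondrial LPD1 (NO03G01760) had 200.2, 205 and 176 CPM in NR and 387, 391 and 399 CPM in ND, 2.03 times as much (1.02 ± 0.06, adjusted p = 1.92e-12). The chloroplastic LPD1 (NO08G02730) had 649, 673 and 636 CPM in NR and 377, 394 and 391 CPM in ND, 1.68 times less (-0.75 ± 0.05, adjusted p = 9.8e-12). Neither pair of groups overlapped, and the fall remained with library totals alone (-0.43). The log2 ratio of the mitochondrial to the chloroplastic model in TPM rose from 0.25 ± 0.09 to 2.04 ± 0.02.

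The 3 transhydrogenase-described models were not uniform. NO26G00730 went from 101, 103 and 89.3 CPM to 296, 288 and 289 CPM, the largest rise of any member (1.57 ± 0.06, adjusted p = 4.7e-15). NO02G02010 rose from 84.7, 83.9 and 85.7 CPM to 189.6, 188 and 186 CPM (1.15 ± 0.06). In contrast, NO20G01600, with divided reads, fell from 171, 174 and 171 CPM to 118, 108 and 107 CPM (-0.63 ± 0.06), and its groups did not overlap either.

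Citrate synthase, which joins acetyl-CoA to oxaloacetate and opens the cycle, was not called in its mitochondrial form and fell in its peroxisomal form. The mitochondrial CIT1 (NO09G02460, divided reads) had 741, 732 and 685 CPM in NR and 713, 655 and 676 CPM in ND. The groups overlapped and the change of -0.08 ± 0.05 was not called (adjusted p = 0.148), though it was called lower without NR 3 (-0.11, adjusted p = 0.0266) and higher with library totals alone (0.24, adjusted p = 8.84e-05). The peroxisomal citrate synthase cshA (NO19G01880, divided reads), a form that in plants and yeast works beside fatty acid breakdown and the glyoxylate cycle, fell from 185, 212 and 205 CPM to 109.5, 106 and 106 CPM (-0.90 ± 0.06, adjusted p = 7.16e-11).

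The next enzymes of the cycle were its most abundant transcripts, and both rose. Aconitase (NO02G04110, divided reads), which isomerises citrate to isocitrate, had 1818, 1902 and 1736 CPM in NR and 2901, 2775 and 2735 CPM in ND (0.62 ± 0.04, adjusted p = 9.22e-11). The NADP-dependent isocitrate dehydrogenase Idh2 (NO03G02920), which makes 2-oxoglutarate and NADPH, went from 569, 537 and 528 CPM to 959, 1004 and 967 CPM (0.84 ± 0.05, adjusted p = 1.4e-12). ND lay above NR in every library for both. In TPM, aconitase ranked first and Idh2 next among the members in both conditions, at 798 ± 38.3 and 534 ± 16.1 TPM in NR and 1609.6 ± 56.1 and 1240.2 ± 31.5 TPM in ND, and these levels did not overlap.

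The 2-oxoglutarate dehydrogenase complex, which stands where carbon skeletons leave for glutamate, rose by little in its E1 and E2 models. Its E1 model ogdh (NO14G01860) went from 626, 643 and 597 CPM to 728, 739 and 730.4 CPM, 1.18 times more (0.24 ± 0.05, adjusted p = 0.000104). The succinyltransferase (E2) models named odhB changed by a similar amount, NO19G01350 from 188, 181 and 174 CPM to 231, 227 and 225 CPM (0.33 ± 0.05) and NO14G01200 from 43.2 to 49.2 CPM up to 58.5 to 64.6 CPM (0.37 ± 0.09). No groups overlapped. Scaled by library totals alone, the 3 changes were 0.55, 0.64 and 0.69.

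Succinate-CoA ligase, which makes ATP or GTP at the substrate level, rose in both subunits. The alpha subunit SCSa (NO06G03810) had 219.9, 231 and 216 CPM in NR and 432, 410.0 and 424 CPM in ND (0.93 ± 0.05, adjusted p = 1.35e-12). The beta subunit scsC (NO24G00360) had 199, 205 and 194 CPM in NR and 478, 483 and 485 CPM in ND (1.27 ± 0.05, adjusted p = 4.07e-15). All ND values were above all NR values. The beta subunit moved further, and the log2 ratio of alpha to beta in TPM went from -0.54 ± 0.03 to -0.91 ± 0.05.

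Succinate dehydrogenase, which belongs to the cycle and, as complex II, to the respiratory chain, was divided between its catalytic and its membrane part. The flavoprotein SDH1 (NO01G01530), which oxidises succinate, went from 235, 223 and 215 CPM to 621, 596 and 601 CPM, 2.7 times more (1.43 ± 0.05, adjusted p = 8.4e-16). The iron-sulfur subunit SDH2 (NO01G05020, divided reads) went from 174, 169 and 151 CPM to 377, 362 and 353 CPM (1.14 ± 0.06, adjusted p = 3.26e-13). Neither subunit had an ND library within the NR range.

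The membrane anchors moved less or were not called. The cytochrome b560 subunit sdhC (NO17G00800) had 63.3, 61.6 and 63.5 CPM in NR and 56.3, 69.3 and 56.5 CPM in ND, so that 2 ND libraries lay below NR and 1 above (-0.05 ± 0.09, adjusted p = 0.641). The fourth subunit, NO29G00740, which carries the SDHD number, went from 129, 126 and 144 CPM to 170.3, 170.2 and 158 CPM (0.32 ± 0.06, adjusted p = 0.000175). With library totals alone both anchors were called higher, at 0.27 and 0.64, against 1.75 and 1.46 for SDH1 and SDH2. In TPM, SDH1 was below sdhC in NR (log2 ratio -1.13 ± 0.06) and above it in ND (0.29 ± 0.20), and its ratio to NO29G00740 turned from -0.74 ± 0.11 to 0.36 ± 0.08. The ratio of SDH1 to SDH2 moved less, from -0.02 ± 0.05 to 0.26 ± 0.03. The aspartate oxidase model nadB, which shares the flavoprotein's KEGG number, also rose, from 293, 263 and 261 CPM to 522, 512 and 529 CPM (0.93 ± 0.05).

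Fumarase, which hydrates fumarate to malate, was represented by 4 models, of which 3 rose and 1 fell. The class II enzyme fumC (NO06G03600) had 153, 158 and 135 CPM in NR and 198, 202 and 190.2 CPM in ND (0.40 ± 0.06, adjusted p = 9.58e-06). NO17G01110, annotated by number only, changed by 0.56 ± 0.08. The class I models fumA, neighbours by gene ID with divided reads, moved in opposite directions. NO02G04180 rose from 73.1, 66.6 and 52.7 CPM to 193, 171 and 158 CPM (1.43 ± 0.09), whereas NO02G04170 fell from 218, 210.4 and 232 CPM to 158, 168 and 158 CPM (-0.45 ± 0.06), a call lost in both FPKM fits (-0.13 in each). NO02G04170 is 7190 bp long against 1728 bp for NO02G04180, and another of its descriptions names a proteasome ATPase. Summed, the pair went from 285 ± 7.39 to 335 ± 17.8 CPM, a change of 0.23 ± 0.05 (adjusted p = 0.000556).

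Malate dehydrogenase, which closes the cycle by reforming oxaloacetate, rose in its mitochondrial form and in CPM fell in its cytoplasmic form. MDH2 (NO09G03170) went from 247, 235 and 225 CPM to 353, 356 and 365 CPM (0.60 ± 0.05, adjusted p = 1.97e-09). The cytoplasmic MDH1 NO05G03780, with divided reads and a KEGG number for a ribosomal protein beside that of the dehydrogenase, went from 173, 167 and 169 CPM to 121, 108 and 111 CPM (-0.59 ± 0.06, adjusted p = 4.35e-08). Its neighbour MDH1 NO05G03790 stood at 13.8, 0 and 5.83 CPM in the NR libraries and at 0 in all 3 ND libraries. It did not pass the filter on low counts and was not tested. The sum of both MDH1 models changed by -0.64 ± 0.06. NO05G03780 was still called lower with library totals alone (-0.27), while on log2(FPKM + 1) its change was 0.09 and not called. In TPM it averaged 118 ± 3.82 in NR and 129 ± 6.17 in ND, so its fall was not seen in that unit. Its average length was 2355 bp in NR and 1910 bp in ND.

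The enzymes that refill the cycle and draw citrate from it moved apart. Pyruvate carboxylase, which makes oxaloacetate from pyruvate, was represented almost entirely by the mitochondrial Pc (NO04G04130, divided reads), which rose from 330.4, 333 and 294 CPM to 529, 551 and 524 CPM (0.74 ± 0.05, adjusted p = 1.01e-10). The second model, pyc (NO15G00270), had 10.5 to 14.3 CPM in NR and 14.4 to 18.2 CPM in ND and was not called (0.36 ± 0.18, adjusted p = 0.0773). It was called higher with upper-quartile factors, with library totals alone, in both FPKM fits and without NR 1. ATP-citrate synthase, ACLY (NO01G01420), fell from 1171, 1123 and 1051 CPM to 576, 533 and 552 CPM, 2.01 times less (-1.01 ± 0.05, adjusted p = 2.03e-13). Its fall held with library totals alone (-0.69), and the log2 ratio of CIT1 to ACLY in TPM turned from -0.39 ± 0.02 to 0.54 ± 0.01.

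**Figure D2:**
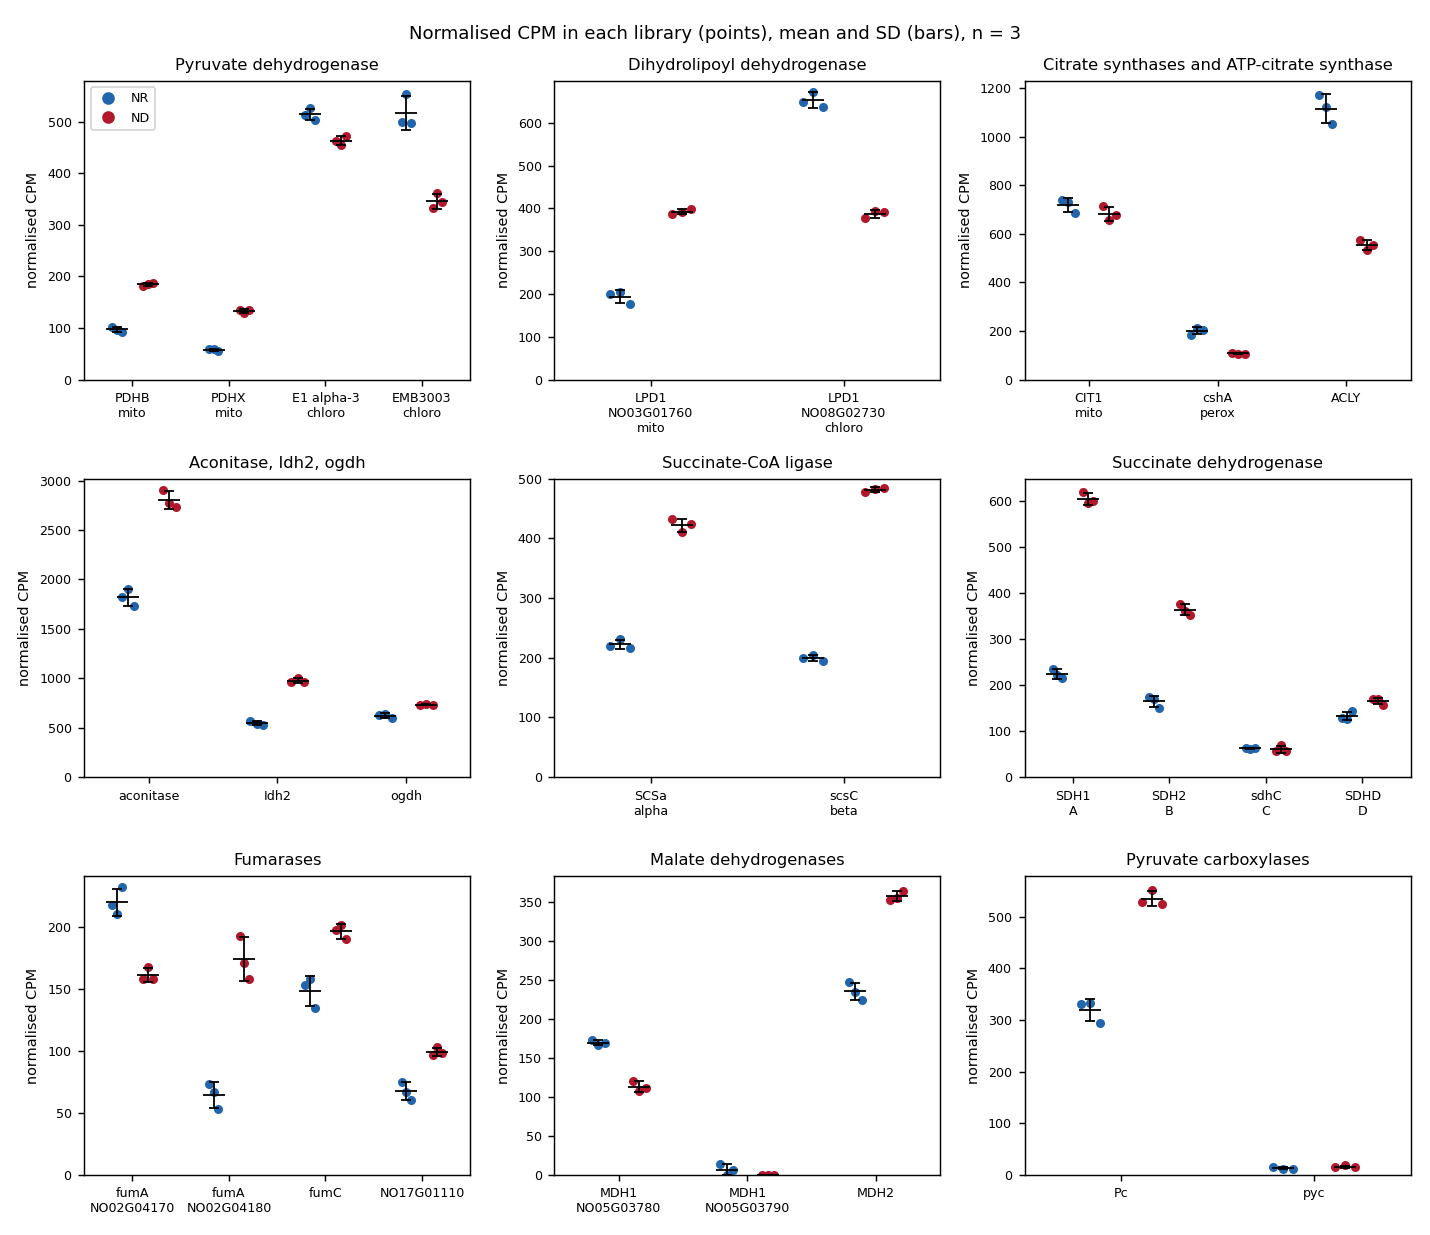
Normalised CPM in each NR (blue) and ND (red) library for selected models of 9 enzymes or steps, with mean and SD (n = 3) as bars and each axis starting at 0. The pyruvate dehydrogenase panel leaves out the PDHA, LAT1, DLAT and Dlat models, several of which were not called or changed little. The odhB models are not drawn either. SDH1 and SDH2 separate widely while sdhC overlaps, and the chloroplastic LPD1 falls to 388 CPM as the mitochondrial LPD1 rises to 392 CPM.

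Shares within an enzyme do not depend on the scaling between libraries. They were computed in TPM for 23 models of 8 enzymes. With 3 libraries against 3 the exact two-sided permutation test cannot give a p below 0.1, so none of these shares, and none of the 9 ratios of models above, can pass 0.05, and they are given as values. The mitochondrial LPD1 made up 55.4%, 55.1% and 52.6% of E3 transcripts in NR and 80.6%, 80.1% and 80.5% in ND. The chloroplastic EMB3003 held 54.1% ± 2.1 (SD, n = 3) of acetyltransferase transcripts in NR and 37.3% ± 0.923 in ND. The groups did not overlap in either.

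The same direction was seen for citrate synthase and malate dehydrogenase, each with a mitochondrial form and a form described for another compartment. CIT1 made up 78.9% ± 1.63 of citrate synthase transcripts in NR and 86.4% ± 0.478 in ND, and MDH2 50% ± 2.37 of malate dehydrogenase transcripts in NR and 66.1% ± 1.47 in ND. Pc held 96.3% ± 0.383 of pyruvate carboxylase transcripts in NR and 97.3% ± 0.302 in ND. The other model, pyc, has no compartment in its description and only 38 to 101 counts per library. In fumarase the model NO02G04180 went from 26.7% ± 2.39 to 45.6% ± 2.46, and fumC from 42.8% ± 1.43 to 35.5% ± 1.29. Shares that overlapped between the groups included those of all 3 E1 alpha models and of both odhB models, where NO19G01350 held 66.8% ± 1.62 in NR and 65.9% ± 1.48 in ND.

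**Figure D3:**
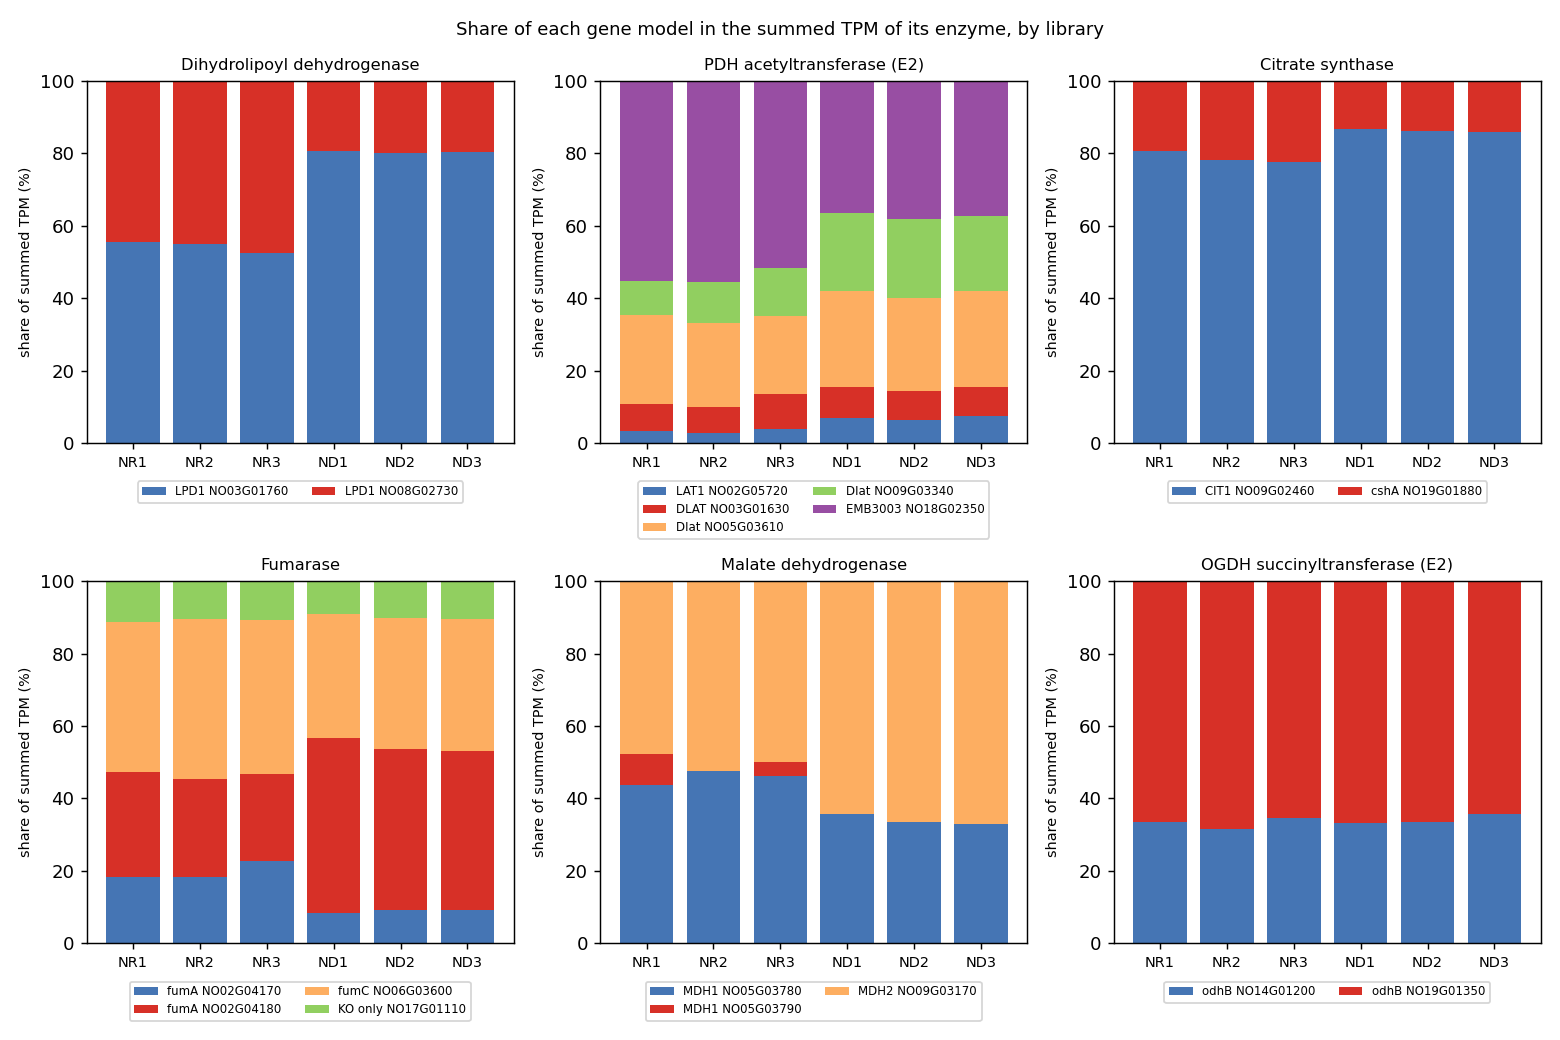
Share of each gene model in the summed TPM of its enzyme (percent, axis from 0 to 100) in each of the 6 libraries. The mitochondrial LPD1 (NO03G01760) holds 52.6% to 55.4% in NR and 80.1% to 80.6% in ND, while the odhB models keep overlapping shares.

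Grouped by the compartment in their protein descriptions, a grouping chosen after the values were seen, 15 of 20 tested mitochondrial members rose and none fell in edgeR. DESeq2 gave 14 higher and 0 lower, where 2885 of all 9329 genes tested were higher and 3106 lower. Each FPKM fit with limma gave 19 higher and 0 lower. FPKM shifted all genes upward: on log2(FPKM + 1), 5090 of 9687 were higher and 2031 lower, with a median of 0.34. With all 6 libraries, 0 were lower at an unadjusted p under 0.05 in these fits, while CIT1 was called lower without NR 3. The median change of these 20 was 0.61 (0.93 with library totals alone, when all 20 were called higher). Those not called were CIT1, sdhC, DLAT and both PDHA models. All 3 chloroplastic members fell (2 fell and 1 rose with library totals alone), as did the peroxisomal cshA and the tested cytoplasmic MDH1. Of the 13 members whose description names no compartment 9 rose and 3 fell.

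Genes outside the list give the background for these groups. Of 246 other tested genes with a mitochondrial description 39.8% rose and 35.4% fell, with a median of 0.06. Of 316 other tested genes with a chloroplastic description 21.5% rose and 58.5% fell, with a median of -0.37. These shares depended on the scaling. By library totals alone, 152 of the 246 mitochondrial genes were higher and 41 lower, with a median of 0.38, and 112 of the 316 chloroplastic genes were higher and 143 lower, with a median of -0.05.

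Together the members made up 0.649%, 0.654% and 0.622% of all TPM in NR and 1.16%, 1.16% and 1.15% in ND. Without aconitase, the largest contributor, the shares were 0.562% ± 0.0141 and 0.995% ± 0.00572. TPM is a share of the library, so the composition of the rest of the library enters these values.

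Pathways that adjoin the cycle in KEGG were counted without their shared members. The background over all genes tested was 35.7% higher and 35.5% lower (54.4% and 23% with library totals alone). In glyoxylate and dicarboxylate metabolism, which shares 11 of its 44 genes with the cycle, 10 of the other 33 rose and 13 fell, with a median of -0.09 (19 and 7 with library totals alone). In pyruvate metabolism, which shares 24 of 63, 14 of the other 39 rose and 16 fell, with a median of 0.09 (22 and 11 with library totals alone). In oxidative phosphorylation, which shares 5 of 62, 8 of 56 other tested genes rose and 31 fell, with a median of -0.28 (22 and 16 with library totals alone). The 5 shared genes are the 4 succinate dehydrogenase subunits, of which 3 rose, and nadB, which also rose. No test of the difference between these lists was made.

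**Figure D4:**
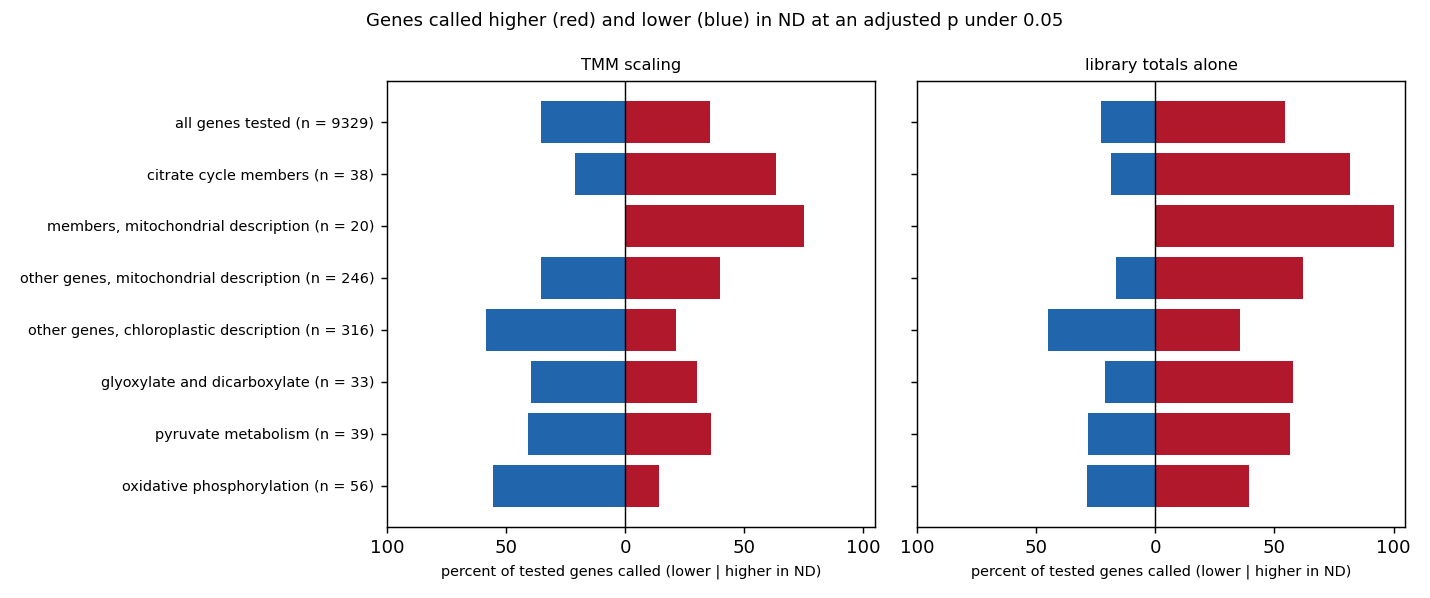
Percent of tested genes called higher (red) and lower (blue) in ND at an adjusted p under 0.05, with TMM scaling and with library totals alone. Of the citrate cycle members 63.2% were higher with TMM scaling against 35.7% of all genes and 14.3% of the other oxidative phosphorylation genes.

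Isocitrate lyase and malate synthase, the enzymes particular to the glyoxylate bypass, which skips the carbon dioxide releasing steps, rose. They were named by description out of a KEGG list in which more of the other genes fell than rose, and the peroxisomal citrate synthase cshA fell. The isocitrate lyase ACU-7 (NO06G01840) went from 1028, 1066 and 985 CPM to 1829, 1729.9 and 1715 CPM (0.78 ± 0.05, adjusted p = 3.94e-12). The more abundant malate synthase, mls NO02G01090, went from 820.5, 896 and 843 CPM to 1379.8, 1402 and 1344 CPM (0.69 ± 0.05), and the other, mls NO02G03280, changed by 1.17 ± 0.10. In TPM the isocitrate lyase averaged 792 in NR and 1724 in ND, next to 798 and 1609.6 for aconitase.

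Malic enzymes, which turn malate into pyruvate, also rose. The model NO26G00480, described as a malic enzyme of hydrogenosomes, went from 68.5, 49.5 and 49.4 CPM to 216, 206 and 214 CPM (1.91 ± 0.09, adjusted p = 6.55e-14), and ME1 (NO06G00510, divided reads) changed by 0.62 ± 0.05. Of 10 mitochondrial carriers described as moving tricarboxylates, dicarboxylates or succinate and fumarate, 9 were tested, with 4 higher and 4 lower (5 and 3 with library totals alone). Of all genes tested, 35.7% were higher and 35.5% lower (54.4% and 23% with library totals alone). The 2-oxoglutarate and malate carrier misc-1 (NO25G00320, divided reads) rose from 18, 17.3 and 18.9 CPM to 64.7, 55.9 and 56.7 CPM (1.71 ± 0.11). The carrier Slc25a21 (NO14G03280), described as moving 2-oxodicarboxylates, changed by -2.41 ± 0.24. Carriers described as moving tricarboxylates did not move together. SLC25A1 NO09G03310 changed by 0.87 ± 0.10 and DTC (NO05G02250) by 0.68 ± 0.11. Slc25a1 NO08G02900 changed by -0.54 ± 0.13 and SLC25A1 NO26G01230 (divided reads) by -0.63 ± 0.08. The succinate and fumarate carriers named SFC1 were not uniform. NO25G01840, at 29.6 TPM in NR and 9.33 TPM in ND, changed by -2.04 ± 0.17. The most abundant SFC1 model, NO06G01850, at 323 TPM in NR and 488 TPM in ND, rose by 0.21 ± 0.06 (adjusted p = 0.00477).

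The authors' deposited table lists 2057 genes with an absolute log2 change above 1 and holds 10 of the members. These were the same 10 members that passed 2 times here, 9 higher and 1 lower. The authors' values come from the same libraries, so this match is not an independent check. For SDH1 the authors' deposited table gives a log2 change of 1.42 and for ACLY -1.02.

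Of the 14 members with more than 1 annotated transcript, 6 had deposited average lengths that did not overlap between the conditions, where 25.3% of all tested genes with several transcripts did. These lengths are weighted by the estimated abundance of the transcripts. The largest differences were in MDH1 NO05G03780, where NR ran from 2296 to 2414 bp and ND from 1889 to 1922 bp, and in Pc, where NR ran from 4868 to 5010 bp and ND from 4627 to 4677 bp. All 6 models, which also include cshA, DLAT, PDHA NO01G03950 and aconitase, have divided reads, and these lengths enter their TPM. Aconitase, with 8 transcripts, ran from 3575 to 3594 bp and from 3494 to 3554 bp, whereas the members with whole counts, such as Idh2, all had overlapping lengths.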

How the data were processed

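RNA from 3 NR and 3 ND cultures was sequenced. Per the submitters' processing notes the tools used were STAR, Trim Galore and Picard, StringTie, featureCounts and also edgeR (versions and roles not given). The genome build is not given in the sources used here. The authors deposited, per the file headers, an estimated count (expected count) per gene without normalisation, whole in 79.6% to 80.9% of genes, a TPM and an FPKM, with gene and effective lengths. Their comparison table holds log2 fold changes, p-values and FDR, per the file headers. Gene IDs matched 0 of 160 genes of the reference table, so no coordinates or sequences are given. Expected counts were rounded and tested on the whole table with edgeR 4.0.16 in R 4.3.3 (filterByExpr, TMM, quasi-likelihood F test, no block), with Benjamini-Hochberg adjustment over 9329 genes, called at 0.05. TMM factors were 0.890 to 0.908 in NR and 1.111 to 1.123 in ND, and the biological coefficient of variation was 0.0475. The SE is the absolute log2 change over the square root of F. The fit was also tested on counts simulated with the dispersion of the main fit, with 200 genes changed evenly up and down. With so few genes changed, the simulation does not test the scaling between libraries. Every per-sample column was matched to a sample. Members were grouped by enzyme from KEGG numbers and descriptions. Library values were given for the most abundant model of each enzyme and for called members with an absolute log2 change of at least 0.58, along with others of the same enzyme. Outside the list, only isocitrate lyase, malate synthase, malic enzyme and the carriers were named, from their descriptions. No measured value entered the KEGG rule for membership, but members and lists were chosen with earlier results of these data known. Alternatives were upper-quartile and RLE factors, library totals, the replicate block, DESeq2 1.42.0, limma 3.58.1 on log2 FPKM with 1 or 0.1 added (genes reaching an FPKM of 1 in 3 libraries), whole counts only, no filter, a 10 CPM minimum, an adjusted p of 0.01, each library left out, and other units for shares and ratios. Summing adjacent models and other memberships were added after seeing the data.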

Additional observations from a re-analysis of the deposited data

How the results depend on the processing

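Of 24 members higher and 8 lower, leaving out each library gave 23 to 24 higher and 8 to 9 lower, with a median of 0.33 to 0.46 (0.39 with all libraries). The number lower was 5 in both FPKM fits and 4 with whole counts only. Among mitochondrial descriptions alone 15 were higher and 0 lower, with a median of 0.61. The members' median was 0.50 with upper-quartile factors (0.13 over all genes) and 0.71 with library totals alone (0.34 over all genes). It was 0.72 on log2(FPKM + 1) (0.34 over all genes) and 0.73 on log2(FPKM + 0.1) (0.36 over all genes). With whole counts only it was 0.56, against 0.02 over all genes. For neighbouring pathways, library totals alone gave 19 higher and 7 lower in glyoxylate metabolism, 22 higher in pyruvate metabolism, and 22 higher and 16 lower in oxidative phosphorylation. The FPKM fits gave 17 higher and 6 lower, then 23 and 22 higher, then 20 higher and 13 lower. Over all genes tested, library totals alone called 54.4% higher and 23% lower. The FPKM fits called 5090 and 5059 of 9687 genes higher, and 2031 and 2019 lower.

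Signs turned mainly for members near 0, where the scaling shifts all genes. MDH1 NO05G03780 was not near 0 in the main fit (-0.59), kept its sign with library totals alone (-0.27) and turned only in the FPKM fits. Its average length, which enters FPKM, was 2355 bp in NR and 1910 bp in ND. With upper-quartile factors, PDHA NO01G03940 was at 0.07, PDHA NO01G03950 at 0.05, DLAT at 0.08, CIT1 at 0.03 and sdhC at 0.06. With library totals alone these were at 0.28, 0.26, 0.29, 0.24 and 0.27, and Os04g0119400 at 0.17. On log2(FPKM + 1) they were at 0.31, 0.30, 0.30, 0.24 and 0.34, with Os04g0119400 at 0.17 and MDH1 NO05G03780 at 0.09. On log2(FPKM + 0.1) they were at 0.31, 0.31, 0.30, 0.24 and 0.34, with 0.17 and 0.09 for the last. Leaving out 1 library gave -0.12 to 0.04 for PDHA NO01G03940 (0.04 without NR 1), -0.12 to 0.13 for DLAT (0.13 without NR 3) and -0.16 to 0.00 for sdhC (0.00 without ND 3). Summing adjacent models turned fumA NO02G04170 to 0.23, since its partner was added. Apart from the shift in scaling and this sum, the cause was not tested.

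Among shares, estimated counts in place of TPM gave a change of -13.2 percentage points for EMB3003, 14.7 for fumA NO02G04180 and 18.7 for MDH2, against -16.9, 18.9 and 16 in TPM. The share of odhB NO19G01350 changed by -0.861 points, and by -1.59 to 0.0119 when a library was left out.

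No strong pairing of the cultures by replicate number was visible. Correlations of deviations from the group means were 0.019, 0.036 and 0.089 for libraries of the same number. For libraries of unlike number they ran from -0.064 to 0.026. With 3 libraries per group these values cannot settle whether a weak pairing was present, and the labels name no shared batch. With the replicate block, 37 of 38 members kept their call and Dlat NO05G03610 lost it (adjusted p = 0.0524). LAT1 and pyc, the tested members of fewest counts, had standard errors of 0.19 and 0.18.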
